A study of Mus musculus with 9 samples.

Results

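The 10 genes described here are the stress transcription factors Atf4, Ddit3, Atf3, Atf5 and Cebpb and the stress effectors Trib3, Chac1, Nupr1, Sesn2 and Ddit4. They were picked by gene symbol, with their FPKM at the 3 time points already known, from the 47729 genes of the FPKM table, and each symbol was found there. Their levels and differences below are therefore a description, and nothing is supported by a test of them against untreated cells. The libraries came from mouse embryonic stem cells (ESCs), pluripotent cells grown here in LIF/serum medium, which carried a doxycycline (dox)-inducible FLAG-tagged forced homodimer of E2A. In this construct, 1 copy of E47, a bHLH splice form of E2A, is tethered to another by a flexible linker, and the cassette sits upstream of Hprt. Untreated cells (0 h) were compared with cells kept in dox at 1 µg/ml for 18 h and 24 h, with 3 replicate libraries at each of the 3 time points and 9 in all. All groups carry the transgene, and the line is a cassette-exchange derivative. No library of transgene-free cells in dox was analysed here, and none of cells kept without dox for 18 h or 24 h. Effects of dox itself and of time in culture therefore cannot be told apart from an effect of the homodimer.

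ATF4 is the main transcription factor of the integrated stress response. Stress-sensing kinases phosphorylate the translation initiation factor eIF2, which lowers protein synthesis overall but raises translation of the Atf4 mRNA, and ATF4 protein then activates genes for amino acid synthesis, amino acid import, tRNA charging and feedback. Much of ATF4 control is translational, so the mRNA levels given here do not measure ATF4 protein. ATF4 binds composite sites that join part of a C/EBP site to part of an ATF site, often as a dimer with a C/EBP protein. CHOP, the product of Ddit3, acts with it on many shared targets.

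The promoters of the 10 genes were searched for this composite site because the genes are grouped by a shared regulator. RefSeq gave 11 promoters for the 10 genes (GRCm38.p6, from 250 bases before to 50 after the annotated start). The letters searched were TGATGNAA on both strands, and 4 genes, Chac1, Trib3, Atf3 and Nupr1, held them, compared with 3.97% of all 32851 RefSeq promoters of the same length. The windows below are written along the gene's own strand, with the matched bases in capitals. In each the match lies on the opposite strand, so the capitals read as its reverse complement.
Chac1: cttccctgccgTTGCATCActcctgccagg
Trib3: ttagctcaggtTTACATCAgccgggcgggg
Atf3: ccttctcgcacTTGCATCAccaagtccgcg
Nupr1: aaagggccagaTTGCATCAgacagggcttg
The Chac1 window lies at chr2:119351038-119351067 on the plus strand and its match begins 193 bases before the start. The Trib3 window lies at chr2:152344028-152344057 on the minus strand and its match begins 15 bases into the RefSeq transcript. The Atf3 window (chr1:191183425-191183454) and the Nupr1 window (chr7:126625562-126625591) are on the minus strand, each with its match beginning 110 bases before the start. The cyclic AMP response element TGACGTCA was in 0 of the 10 genes and in 1.79% of all promoters. E47 itself binds E-boxes. The letters CAGCTG, read on both strands, were in Chac1 and Nupr1 and in 16.3% of all promoters, and CAGGTG was in Atf4 and Atf5 and in 20.2% of all promoters. These matches describe the sequence only.

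The libraries held 22028363 to 26471569 reads on genes. Tcf3, the gene that encodes E2A, had a mean of 39.1 FPKM in untreated cells (s.d. 1.801, n=3) and rose to 110.1 (s.d. 5.52) after 18 h and 102 (s.d. 7.55) after 24 h, with no overlap between untreated and treated libraries. The transgene is mouse E47 sequence, so its reads and those of the endogenous gene may not be separated in this value. The 8 ESC markers summed to 823 to 1056 FPKM at 0 h, 668 to 868 at 18 h and 610 to 814 at 24 h, and none was at 0 in any library. One of the 8, the Nodal co-receptor gene Tdgf1, was called lower at both times, from 121 to 144 FPKM in untreated cells to 49.8 to 61.2 after 18 h and 44.9 to 52.5 after 24 h. On the adjusted p alone Pou5f1, which encodes OCT4, was lower (log2 fold-change −0.58) and Nanog higher (0.86) at 24 h. These 3 were named after their values were seen, and the part of such marker changes in the results below was not tested. The 7 fibroblast markers summed to 6.99 to 14.7, 6.04 to 10.3 and 6.10 to 10.7 FPKM, and the 5 primitive endoderm markers to 3.94 to 4.99, 3.45 to 4.46 and 4.61 to 5.75 FPKM. Of the 5 fibroblast markers tested, 1 was lower at 24 h on the adjusted p alone. Within each replicate number the ESC and fibroblast sums were lower after dox at both times. The primitive endoderm sums were lower at 18 h and higher at 24 h in each number. Lum was at 0 in 1 library each of 0 h and 18 h, and Sox7 in 1 library of 24 h. In these bulk libraries, fewer expressing cells and less RNA per cell cannot be told apart.

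Untreated replicate 2 stood apart for these genes. All 10 had their lowest untreated level in that library. Across all 17951 genes tested, it was the lowest of the 3 for 33.2%. The differences of the 10 genes from untreated cells, and the counts and medians of the 4 lists of ATF4 pathway genes, are given with this library and without it. Because all 10 were lowest there, leaving it out necessarily widens the differences of the 9 genes that were lower after dox. Leaving out untreated replicate 1 or 3 instead narrowed each of these 9 differences at both times. For the other lists, calls gained or lost without it are named.

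Atf4, the central factor of the response, was the most abundant of the 10 by mean level at each time, by a wide margin in untreated cells and a narrow one over Ddit4 after dox. Its FPKM in untreated replicates 1, 2 and 3 was 267, 160 and 258, followed by 91.4, 94.4 and 91.4 after 18 h in dox and 98.3, 95.1 and 95.2 after 24 h. All 6 treated libraries lay below all 3 untreated ones, and they spanned far less than the untreated libraries did. The coefficient of variation was 26.1% in untreated cells, against 1.901% after 18 h and 1.93% after 24 h. On the log2 scale of FPKM plus 0.1, used for all fold changes here, the log2 fold-change of Atf4 was −1.27 at 18 h and −1.21 at 24 h (s.e. 0.164). Without untreated replicate 2 the log2 fold-change was −1.51 at 18 h and −1.45 at 24 h. Atf4 is a protein-coding gene at chr15:80255184-80257541 on the plus strand of GRCm38, and no other annotated gene overlaps it.

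Ddit3 encodes CHOP, a C/EBP-family factor linked to stress-induced cell death. Its FPKM was 6.61, 2.68 and 7.49 in untreated cells, 1.97, 2.83 and 1.79 after 18 h in dox and 2.32, 2.59 and 2.94 after 24 h. Untreated replicates 1 and 3 were above all treated libraries, but untreated replicate 2 lay among them. The log2 fold-change was −1.21 (s.e. 0.341) at 18 h and −0.95 at 24 h. It was −1.66 and −1.40 without untreated replicate 2. Ddit3 (chr10:127290774-127296288, plus strand) overlaps Mars, itself a gene of the ATF4 pathway, and the transcript Gm4189 on the opposite strand, and on its own strand a second annotated protein-coding Ddit3 entry that is not among the genes of the FPKM table. How strand was used in the authors' counting is not given in the sources used here, so reads of the shared stretches may not be separated between Ddit3 and these genes.

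Atf3 and Atf5 are ATF-family factors induced downstream of ATF4. Atf3 measured 7.61, 4.58 and 11.04 FPKM in untreated cells, 3.41, 5.55 and 5.57 after 18 h in dox and 3.05, 4.68 and 4.89 after 24 h. Atf5 measured 13.0, 6.98 and 17.1 FPKM in untreated cells, 6.78, 7.33 and 7.90 after 18 h in dox and 5.94, 5.47 and 7.72 after 24 h. For both genes the untreated and treated ranges overlapped through untreated replicate 2. The log2 fold-change of Atf3 was −0.61 at 18 h and −0.81 at 24 h (s.e. 0.321), and that of Atf5 was −0.66 and −0.87 (s.e. 0.277). Leaving out untreated replicate 2 gave −0.94 and −1.14 for Atf3 and −1.02 and −1.23 for Atf5. Atf5 (chr7:44812256-44816658, minus strand) overlaps Nup62 and Il4i1 on the opposite strand, and Atf3 overlaps Gm24748 there. Among the other genes, Cebpb overlaps Tmem189 on the opposite strand and Sesn2 overlaps Gm12981 on its own strand. As for Ddit3, reads of the shared stretches may not be separated.

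Cebpb encodes C/EBPβ, a dimerisation partner of both ATF4 and CHOP. Its FPKM was 3.96, 1.66 and 3.21 in untreated cells, 1.51, 1.23 and 0.934 after 18 h in dox and 1.62, 1.04 and 2.20 after 24 h. The 18 h libraries were all below the untreated ones, whereas 24 h replicate 3 lay above untreated replicate 2. The log2 fold-change was −1.14 at 18 h and −0.80 at 24 h (s.e. 0.343), and −1.49 and −1.15 without untreated replicate 2.

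Chac1 showed the widest difference of the 10. It encodes a γ-glutamyl cyclotransferase that degrades glutathione and is a target of the ATF4 and CHOP arm. Its FPKM was 35.4, 5.17 and 36.7 in untreated cells, 1.66, 1.23 and 0.884 after 18 h in dox and 1.27, 1.15 and 0.920 after 24 h. The treated libraries all lay under the lowest untreated library, which was itself 6.98-fold below the mean of the other two. The values rest on 203 to 1383 reads per untreated library and on 35 to 62 reads per treated library. The mean at 0 h was 20.5-fold that at 18 h and 23.1-fold that at 24 h, and the log2 fold-change was −3.85 and −3.98 (s.e. 0.640). It widened to −4.78 and −4.91 without untreated replicate 2. Without untreated replicate 1 it narrowed to −3.40 and −3.53, and without untreated replicate 3 to −3.38 and −3.50. Chac1 lies at chr2:119351229-119354381 on the plus strand with no overlapping gene.

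Trib3 encodes a pseudokinase that is induced by ATF4 and CHOP and feeds back to dampen them. Its FPKM was 32.5, 8.59 and 37.1 in untreated cells, 4.12, 2.89 and 2.59 after 18 h in dox and 4.48, 2.62 and 2.71 after 24 h. As for Chac1, the treated libraries lay below every untreated one, and untreated replicate 2 sat between them and the other untreated libraries. The log2 fold-change was −2.76 at 18 h and −2.74 at 24 h (s.e. 0.490), and −3.43 and −3.41 without untreated replicate 2. Trib3 lies at chr2:152337422-152344032 on the minus strand, and no annotated gene overlaps it.

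Nupr1 encodes a small stress-induced chromatin protein. It measured 4.72, 0.895 and 3.44 FPKM in untreated cells, 0.574, 0.495 and 0.329 after 18 h in dox and 0.986, 0.624 and 0.745 after 24 h. All 18 h libraries lay below the untreated ones, but 24 h replicate 1 lay above untreated replicate 2. Nupr1 was the least abundant of the 10 after dox, with 20 to 63 reads per treated library. The log2 fold-change was −2.21 at 18 h and −1.56 at 24 h (s.e. 0.504), and −2.89 and −2.24 without untreated replicate 2.

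Sesn2 and Ddit4 encode inhibitors of the growth kinase mTORC1 and are induced by several stresses. Sesn2 measured 55.5, 35.0 and 61.0 FPKM in untreated cells, 35.2, 34.0 and 39.2 after 18 h in dox and 28.8, 29.0 and 31.5 after 24 h. Its 18 h range took in untreated replicate 2, while the 24 h libraries were below all untreated ones, and the log2 fold-change was −0.44 and −0.72 (s.e. 0.175), and −0.69 and −0.97 without that library. Ddit4 (also called REDD1) was the only one of the 10 that was higher after dox. Its FPKM was 43.5, 27.4 and 52.5 in untreated cells, 80.2, 65.3 and 88.2 after 18 h in dox and 80.4, 69.4 and 84.5 after 24 h. The treated libraries lay above every untreated library, and the log2 fold-change was 0.96 at 18 h and 0.97 at 24 h (s.e. 0.213). Without untreated replicate 2, where Ddit4 too was lowest, it was 0.69 and 0.70.

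**Figure D1:**
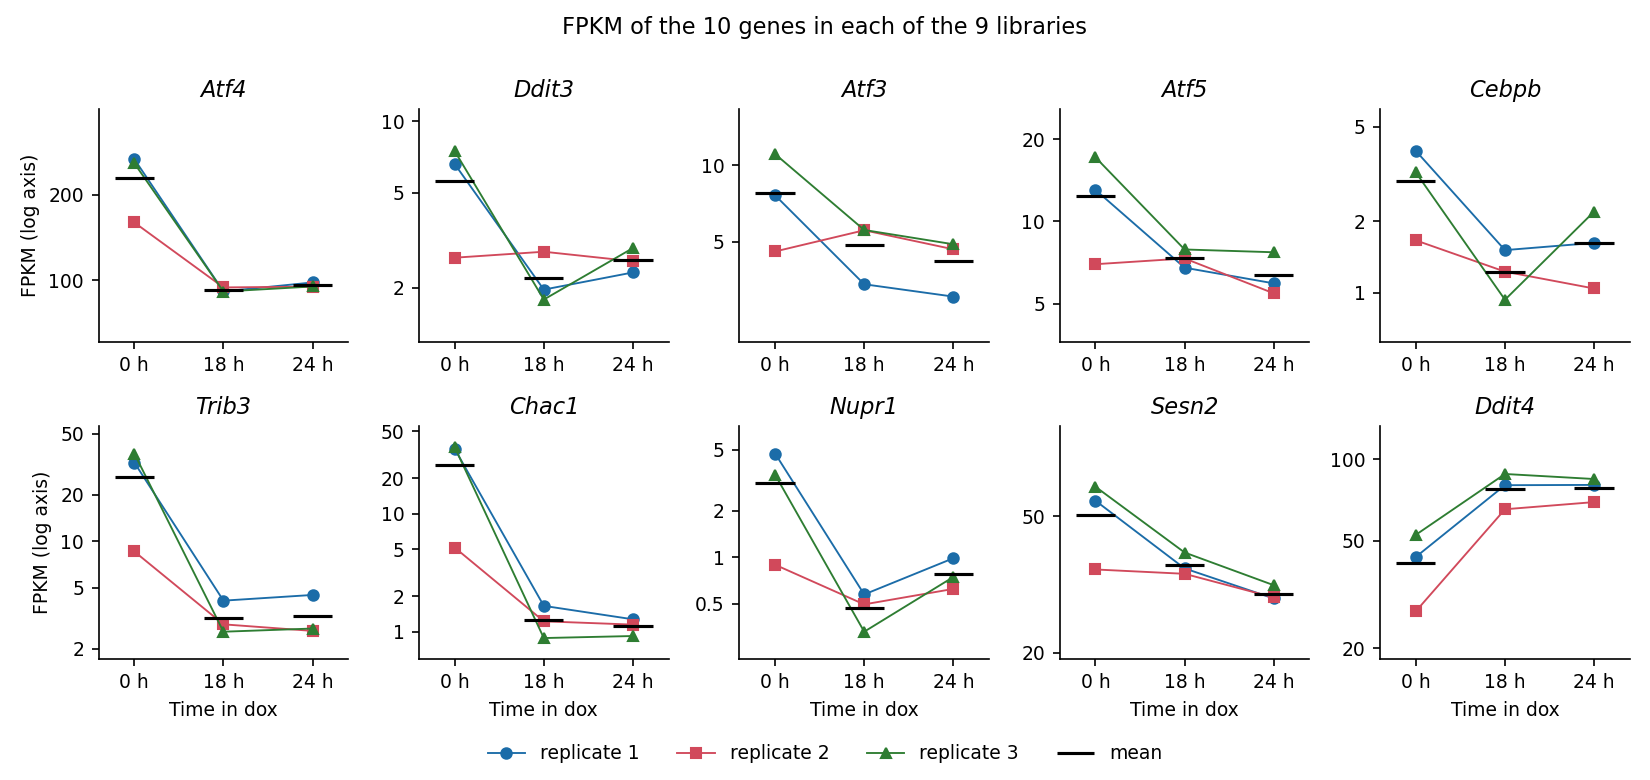
FPKM of each of the 10 genes (vertical log axis, own range per panel) against hours in dox, with a symbol and line per replicate number and a black bar for the mean of 3 libraries. Replicates 1 and 3 start high and come down for 9 genes, replicate 2 starts lower, and Ddit4 goes the other way, from 27.4 to 52.5 FPKM at 0 h to 69.4 to 84.5 at 24 h.

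FPKM is scaled per length, so levels can be set side by side between genes. At 0 h the order of means was Atf4 (229±59.6), Sesn2 (50.5±13.7), Ddit4 (41.2±12.7), Trib3 (26.1±15.3), Chac1 (25.8±17.8), Atf5 (12.4±5.11), Atf3 (7.74±3.23), Ddit3 (5.59±2.56), Nupr1 (3.02±1.95) and Cebpb (2.94±1.17). Over untreated replicates 1 and 3 alone, Chac1 (36.0) came before Trib3 (34.8), and the order was otherwise the same. From Sesn2 downwards every neighbouring pair in this order overlapped in range, and only Atf4 stood clear. At 24 h the order was Atf4 (96.2±1.85), Ddit4 (78.1±7.80), Sesn2 (29.7±1.498), Atf5 (6.38±1.19), Atf3 (4.21±1.01), Trib3 (3.27±1.05), Ddit3 (2.61±0.309), Cebpb (1.62±0.578), Chac1 (1.11±0.180) and Nupr1 (0.785±0.185). Here Atf4, Ddit4, Sesn2 and Atf5 had ranges clear of each other, whereas Atf3 overlapped Trib3, Trib3 overlapped Ddit3, Cebpb overlapped Chac1 and Chac1 overlapped Nupr1. The order at 18 h was the same down to Ddit3, below which Chac1 (1.26±0.387) and Cebpb (1.22±0.289) overlapped and changed places. Chac1 was thus the fifth of the 10 by mean level in untreated cells and the ninth at 24 h.

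The library that stood apart was placed against all genes. For the 11893 genes with a mean of at least 1 FPKM, the log2 difference between untreated replicate 2 and the mean of untreated replicates 1 and 3 had a median of 0.0078, and 86 genes were at least 2-fold lower there and 33 at least 2-fold higher. Among these genes Chac1, at −2.78, was the 13th lowest, Nupr1 (−2.05) the 20th and Trib3 (−2.003) the 21st. Ddit3 (−1.36), Atf5 (−1.09), Cebpb (−1.06) and Atf3 (−0.98) came 47th, 67th, 74th and 89th. The mildest were Ddit4 (−0.80, 153rd), Sesn2 (−0.73, 198th) and Atf4 (−0.72, 208th). Ddit4 was thus low in this library together with the other 9, although it was higher after dox and they were lower. The labels do not give a date, passage or culture for any library, and what set this untreated library apart was not tested.

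**Figure D2:**
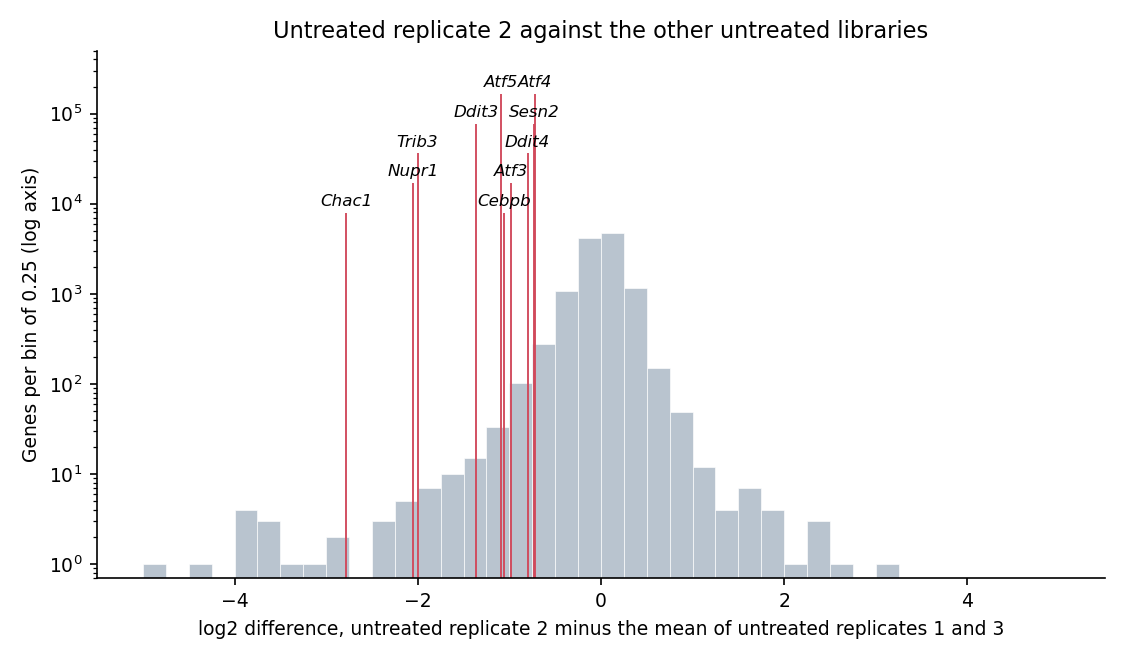
Histogram of the log2 difference of untreated replicate 2 from the mean of untreated replicates 1 and 3 for 11893 genes (grey bars, genes per bin of 0.25 on a log axis), with red lines at the 10 genes. All 10 lines lie left of 0, from −2.78 (Chac1) to −0.72 (Atf4).

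Since same-numbered libraries deviated together, the differences were also taken within each number. At 18 h Chac1 differed by −4.34, −1.99 and −5.22 in replicates 1, 2 and 3, Trib3 by −2.95, −1.54 and −3.79, and Atf4 by −1.55, −0.76 and −1.50. For these 3 genes the direction was the same in each replicate, and replicate 2 showed the smallest difference. Ddit3 differed by −1.70, 0.08 and −2.01, Atf3 by −1.14, 0.27 and −0.98, and Atf5 by −0.93, 0.07 and −1.11. In replicate 2 these 3 factors were slightly above their untreated level at 18 h. Nupr1 (−2.84, −0.74 and −3.04), Cebpb (−1.33, −0.41 and −1.68) and Sesn2 (−0.65, −0.04 and −0.64) kept their sign. Ddit4 differed by 0.88, 1.25 and 0.75, the largest value being in replicate 2. In all, 6 of the 10 were lower in each of the 3 replicates at 18 h and 8 at 24 h, and 1 was higher in each at both times. Of all genes, 26.3% were lower and 26.1% higher in each replicate at 18 h, and 27.6% and 28.4% at 24 h.

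At 24 h the differences of Chac1 were −4.69, −2.08 and −5.17 and those of Trib3 −2.83, −1.68 and −3.73. Ddit3 (−1.47, −0.05 and −1.32) and Atf3 (−1.29, 0.03 and −1.16) were again near 0 in replicate 2. The median difference over the 10 genes was −1.37, −0.40 and −1.24 in replicates 1, 2 and 3, whereas the median over all 17951 genes stayed between −0.0057 and 0.0068 in the same replicates. The 18 h and 24 h comparisons share the untreated libraries, so their likeness is partly built in.

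**Figure D3:**
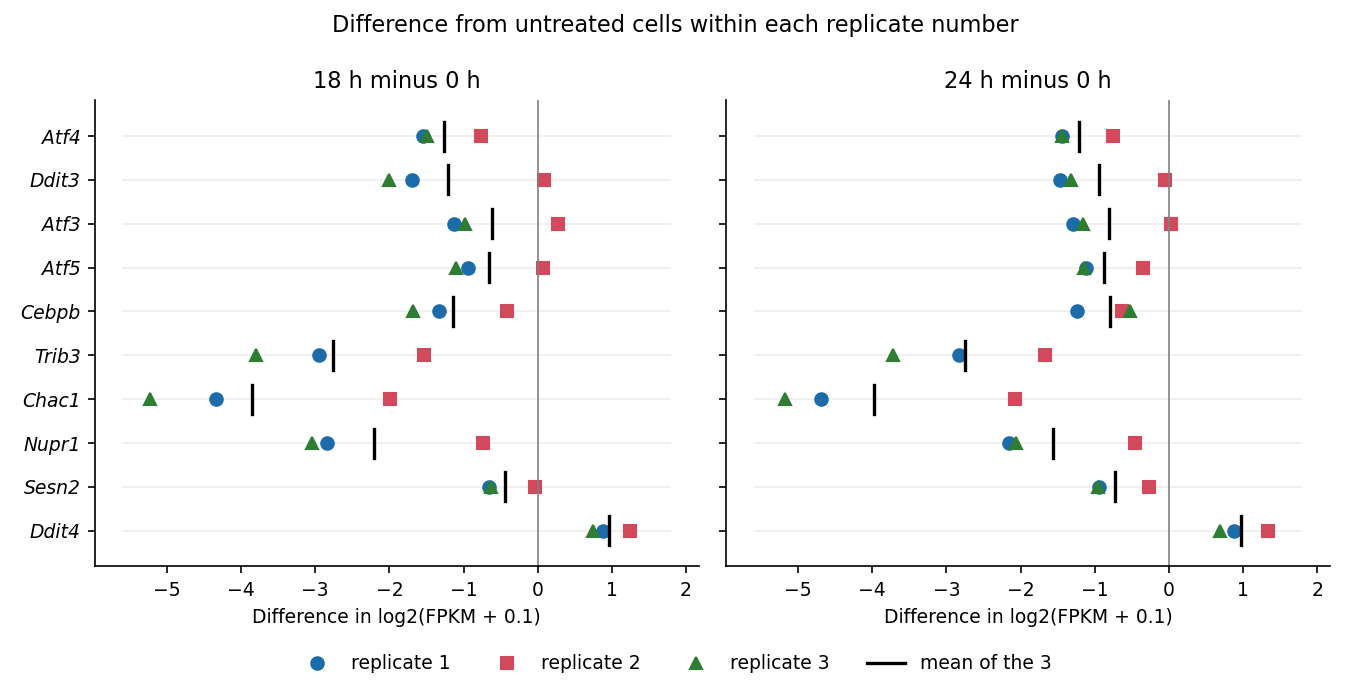
Difference in log2(FPKM + 0.1) between dox-treated and untreated libraries of the same replicate number, for 18 h (left) and 24 h (right), with a symbol per replicate and a black bar for the mean of 3. Replicate 2 lies closest to 0 for 8 of the 9 lower genes at 24 h, Cebpb being the exception, and farthest from 0 for Ddit4.

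By limma, with p adjusted by Benjamini-Hochberg to 0.05 or less and at least a 2-fold change, Atf4, Trib3, Chac1 and Nupr1 were called lower at 18 h and Atf4, Trib3 and Chac1 at 24 h. Across all genes, 0.724% were called lower and 1.33% higher at 18 h, and 0.836% and 2.07% at 24 h. Since the genes were chosen with these differences known, the counts describe the choice and nothing is read from them. No gene of the 10 was called higher, Ddit4 being just under the 2-fold limit. Without untreated replicate 2 the genes called lower numbered 7 at 18 h and 8 at 24 h. Over all genes the lower calls numbered 181 and 189 without that library, against 130 and 150 with it. When untreated replicate 1 or 3 was left out instead, 3 of the 10 were called lower at each time. Without untreated replicate 3 Ddit4 was called higher at both times. Trib3 lost its call at 18 h without 18 h replicate 2 or replicate 3, and Nupr1 without untreated replicate 1 or 3, any 18 h library or 24 h replicate 3, and also with no filter on low values. With the replicate number as a block, Cebpb joined at 18 h and Nupr1 at 24 h.

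Between 18 h and 24 h the libraries of 7 of the 10 overlapped. The 24 h libraries of Nupr1 and Atf4 lay above all those of 18 h, and those of Sesn2 lay below, so that 2 of the 10 were clear above and 1 below, against 6.81% and 6.04% of all genes. The mean of Nupr1 was 0.466 FPKM at 18 h and 0.785 at 24 h. The log2 difference ran from −0.28 for Sesn2 (s.e. 0.175) to 0.65 for Nupr1 (s.e. 0.504), and that of Chac1 was −0.13 (s.e. 0.640). None of the 10 was called, against 0.0223% of all genes, and none had an unadjusted p under 0.05 by limma, edgeR or DESeq2. Each s.e. comes from a fit of all 9 libraries, so it also holds the spread of the untreated ones. It does not measure the spread of the 18 h and 24 h libraries alone. For Chac1 the coefficient of variation was 69.3% at 0 h, 30.8% at 18 h and 16.1% at 24 h. With s.e. of this size a moderate difference in Chac1, Nupr1 or Trib3 could not have been detected by this fit.

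The genes whose levels ran closest to these were sought over the 9 libraries. Pearson's r was taken on log2(FPKM + 0.1) over the 11893 genes with a mean of at least 1 FPKM. The 9 points share 3 time points and 1 low untreated library, so r describes the pattern only. For Atf4 the closest were Cars (r=0.997), Mars (0.996), Yars (0.995) and Aars (0.993), which charge tRNAs with cysteine, methionine, tyrosine and alanine, followed by Atxn2l (0.991). For Chac1 they were Mthfd2 (0.996), an enzyme of mitochondrial folate metabolism, then Nars, Gars, Cars and Yars (each 0.995), and Trib3 was the seventh (0.993). For Trib3 they were Stc2 (0.996), Gpt2 (0.995), Pim3 and Gars (each 0.994) and Chac1 (0.993). Ddit4 had other neighbours, namely Tbc1d8 (0.973), Fbxo10 (0.969), Notch1 (0.967), Tigd3 (0.966) and Izumo4 (0.965), and its own r was −0.70 with Atf4 and −0.65 with Chac1.

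**Figure D4:**
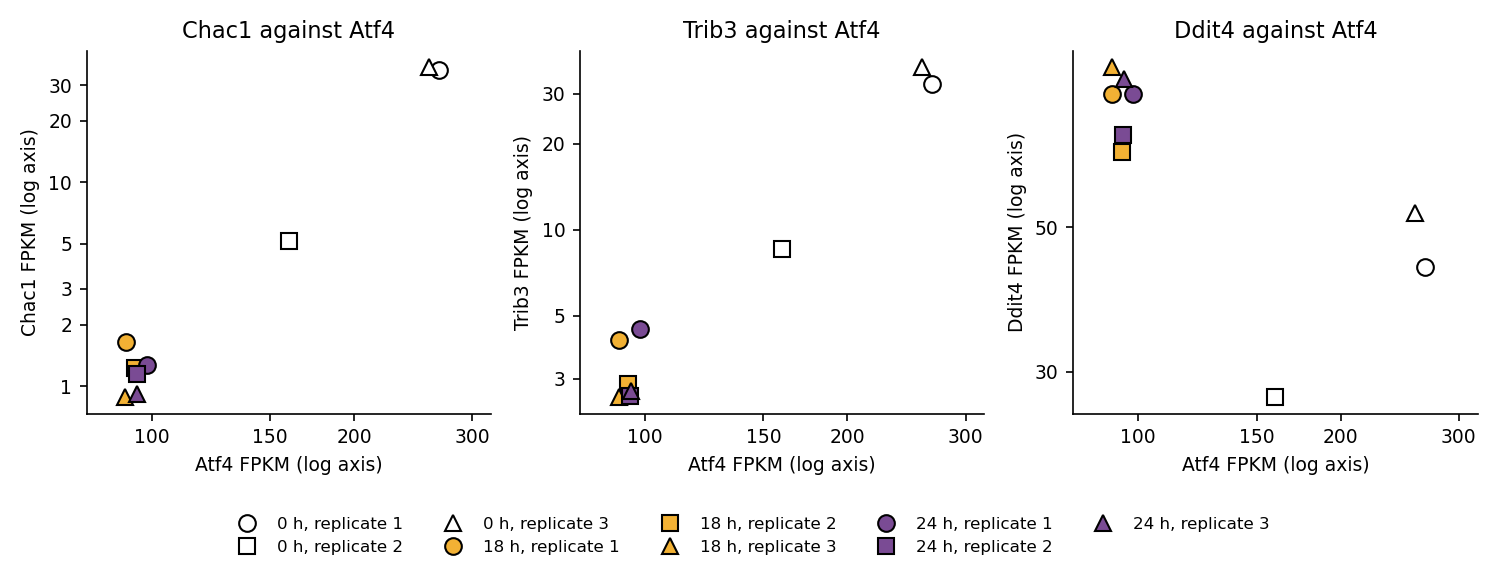
FPKM of Chac1, Trib3 and Ddit4 (vertical, log axis) against FPKM of Atf4 (horizontal, log axis) in each of the 9 libraries, with fill for time in dox and shape for replicate number. Untreated replicate 2, at 160 FPKM of Atf4, lies between the treated and the other untreated libraries for Chac1 and Trib3, and below every other library for Ddit4.

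Other genes of the ATF4 pathway were taken from 4 lists of amino acid enzymes, amino acid transporters, aminoacyl-tRNA synthetases and further ATF4 and CHOP targets. These lists, like the other lists below, were chosen with earlier results of these data known. Their counts and p-values are therefore a description and not an independent test. Of their 50 genes, 49 passed the filter on low values, Slc7a11, the cystine transporter, being left out with 0.202, 0.0509 and 0.182 FPKM at 0 h and at most 0.0141 after dox. Of these 49, 19 fell and none rose at 18 h, and 20 fell and none rose at 24 h. The median log2 fold-change over the 49 was −0.88 at 18 h and −0.97 at 24 h. With no minimum fold change, 37 were lower and 1 higher at 18 h against 3.72% and 4.27% of all genes, and 39 were lower and 1 higher at 24 h against 5.11% and 6.52%. By edgeR, with 49 of the 50 tested, and DESeq2, with all 50, none was called higher at either time. By limma 1 at 18 h and 2 at 24 h had an unadjusted p under 0.05 in that direction. All 3 treated libraries lay below all 3 untreated ones for 42 of the 49 genes at 18 h and 41 at 24 h, compared with 13.7% and 14.6% of all genes.

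The pathway genes shared the low untreated library too. Untreated replicate 2 was the lowest of the 3 for 41 of the 49, and their median log2 difference from the other untreated libraries was −0.62. Within replicate numbers 45, 45 and 46 of the 49 were lower at 18 h, against 48.0%, 50.8% and 49.9% of all genes, and the median difference was −1.01, −0.46 and −1.21 in replicates 1, 2 and 3. The direction thus held in replicate 2, at a smaller size. Without untreated replicate 2 the pathway genes that fell numbered 26 at 18 h and 31 at 24 h, against 181 and 189 genes in all. The median log2 fold-change of the 49 was then −1.101 and −1.17. At 18 h the pathway genes that fell numbered 11 without untreated replicate 1 or 3, 10 without 18 h replicate 2 and 12 without 18 h replicate 3.

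Among the amino acid enzymes, 10 of 14 fell at each time and none rose, with a median log2 fold-change of −1.15 at 18 h and −1.29 at 24 h. Under the replicate block 11 fell at each time. Pck2, the mitochondrial phosphoenolpyruvate carboxykinase, went from 14.6, 4.52 and 16.9 FPKM in untreated cells to 2.70, 2.54 and 3.27 after 24 h (log2 fold-change −1.85, adjusted p = 0.0224 by limma). Gpt2, an alanine transaminase, went from 16.8, 7.43 and 20.1 FPKM to 4.51, 3.42 and 3.79 (−1.78, adjusted p = 0.00877). Asns, which makes asparagine, went from 138, 72.5 and 172 FPKM to 44.3, 39.9 and 43.5 (−1.49, adjusted p = 0.00837). In all 3 the treated libraries were below every untreated one, with untreated replicate 2 the closest to them. Pck2 lost its call when untreated replicate 1 or 3 was left out (adjusted p = 0.0802 and 0.0566 at 24 h), as well as on leaving out any 24 h library, and Asns lost its 18 h call without 18 h replicate 2 (adjusted p = 0.0512). The enzymes that fell numbered 11 and 12 without untreated replicate 2, with medians of −1.43 and −1.57, and the 24 h values were −2.44 for Pck2, −2.21 for Gpt2 and −1.85 for Asns. Cbs, which makes cystathionine, did not pass, at −0.02 at 24 h.

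Of the 8 amino acid transporters tested, 3 fell at 18 h and 4 at 24 h, and none rose, with a median log2 fold-change of −0.86 and −1.101. By edgeR and DESeq2, which also tested Slc7a11, 5 of 9 fell at each time, Slc7a11 among them. Slc7a11 had 67, 17 and 55 reads in untreated cells and 0 to 5 per treated library. Its call rests on the untreated reads, so nothing is read from it. Slc6a9, a glycine transporter, went from 3.52, 1.41 and 4.61 FPKM in untreated cells to 0.444, 0.518 and 0.436 after 24 h, the largest change among the 49 genes at that time (log2 fold-change −2.39, adjusted p = 0.00594 by limma). Slc7a1, a cationic amino acid transporter, went from 12.9, 6.52 and 14.6 FPKM to 2.70, 2.65 and 2.63 (−1.97, adjusted p = 0.00228). Slc7a5, the light chain of the LAT1 transporter of large neutral amino acids, went from 164, 92.5 and 210 FPKM to 65.7, 60.2 and 56.0 (−1.28, adjusted p = 0.0117). The treated libraries of each gene lay below all untreated ones. The transporters that fell numbered 4 and 5 without untreated replicate 2, with medians of −1.14 and −1.39, and Slc6a9 was at −2.87, Slc7a1 at −2.32 and Slc7a5 at −1.62 at 24 h. Slc38a2, a transporter often used as an ATF4 target, did not pass, at 0.05 and −0.01.

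Of the 12 aminoacyl-tRNA synthetases, which charge tRNAs, 3, Cars, Nars and Yars, fell by at least 2-fold at each time by limma, and 5 by edgeR and by DESeq2. By limma 10 at 18 h and all 12 at 24 h passed on the adjusted p alone. Cars went from 36.9, 20.2 and 37.6 FPKM in untreated cells to 12.7, 11.9 and 10.98 after 24 h (log2 fold-change −1.35, adjusted p = 0.00513 by limma). Nars went from 301, 183 and 293 FPKM to 121, 120 and 102 (−1.15, adjusted p = 0.00507), and Yars from 46.7, 31.4 and 49.98 to 20.4, 19.4 and 18.7 (−1.10, adjusted p = 0.00302). The values of the 12 at 24 h spanned −1.35 to −0.29 with a median of −0.91, and the median at 18 h was −0.86. Leaving out untreated replicate 2, 7 of the 12 fell by at least 2-fold at 18 h and 8 at 24 h, and the medians were −1.07 and −1.12. Yars dropped just under 2-fold, at −0.97, without untreated replicate 3.

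The 15 further targets were more mixed, with 3 falling and none rising at each time and a median of −0.49 at 18 h and −0.55 at 24 h. Under the replicate block 4 fell at 18 h and 3 at 24 h. Vldlr, a lipoprotein receptor, went from 2.29, 0.757 and 3.49 FPKM in untreated cells to 0.383, 0.346 and 0.314 after 24 h (log2 fold-change −2.12, adjusted p = 0.0170 by limma). Fgf21, a stress hormone, fell at 18 h (−2.39, adjusted p = 0.0350) but did not pass at 24 h (−1.61, adjusted p = 0.0974). Gdf15, a secreted stress cytokine, fell at 24 h (−1.59, adjusted p = 0.0407) but did not pass at 18 h (−1.47, adjusted p = 0.0623). Fgf21 and Gdf15 were at or below 1.86 FPKM in every library, and each lost its call at a pseudocount of 1, Fgf21 with an adjusted p of 0.0534 and Gdf15 with a log2 fold-change of −0.74. Vldlr lost its 18 h call without untreated replicate 1 or any 18 h library, and its 24 h call without untreated replicate 1 or 24 h replicate 2 or 3. Fgf21 lost its 18 h call without untreated replicate 1 or 3 or any 18 h library, and Gdf15 its 24 h call on leaving out any library other than untreated replicate 2. With untreated replicate 2 left out, 4 of the 15 fell at 18 h and 6 at 24 h (medians −0.56 and −0.62), among them Gdf15 at 18 h (−1.999) and Fgf21 at 24 h (−2.31). Stc2, a secreted glycoprotein that ran closest to Trib3, was the other gene called at both times (−1.57 and −1.56).

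**Figure D5:**
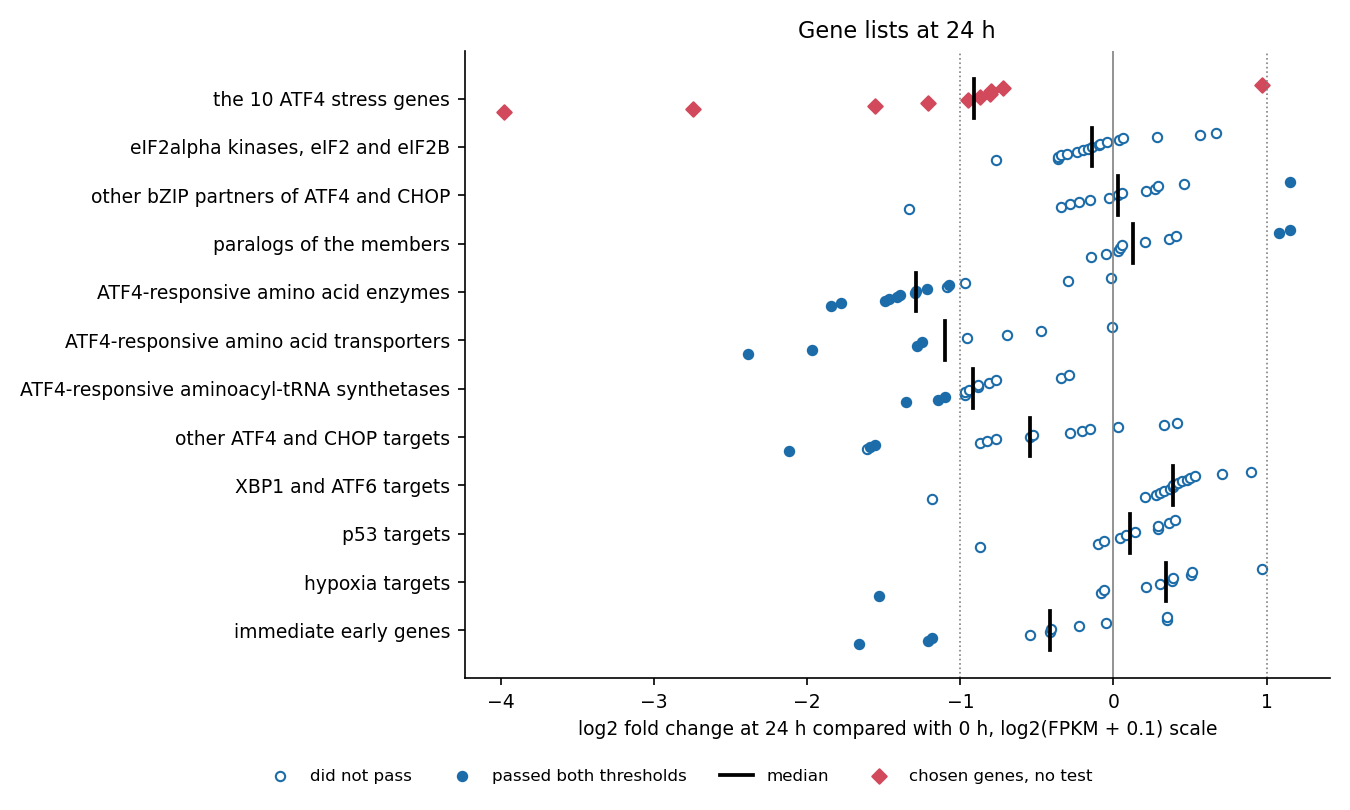
Log2 fold-change at 24 h compared with 0 h for each tested gene of each list, on the log2(FPKM + 0.1) scale, with filled points past both thresholds and dotted lines at 2-fold. The medians of the 4 ATF4 lists lie left of 0, from −1.29 to −0.55, with 3 of the 15 further targets above 0. The list of eIF2 kinases and factors centres on −0.14 and the XBP1 and ATF6 targets on 0.39.

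Upstream of ATF4, the 17 genes for the eIF2 kinases, eIF2, its exchange factor eIF2B and their regulators gave no call at 18 h or 24 h by limma, edgeR or DESeq2. At an unadjusted limma p under 0.05, 6 were lower and 2 higher at 18 h, and 8 were lower and 3 higher at 24 h. On the adjusted p alone, 6 were lower and 2 higher at 24 h. Impact, a regulator of the kinase GCN2, measured 149, 154 and 131 FPKM in untreated cells and 112, 126 and 100 after 24 h, a log2 fold-change of −0.37. Eif2s1, the subunit that the kinases phosphorylate, measured 97.2, 107 and 93.2 FPKM in untreated cells and 87.9, 85.5 and 77.9 after 24 h (−0.24). The widest values in the list at 24 h, picked here after they were seen, were those of Ppp1r15a, Dnajc3 and Eif2ak3. Ppp1r15a encodes the phosphatase subunit GADD34 (−0.70 at 18 h and −0.77 at 24 h) and Dnajc3 a kinase inhibitor (0.22 and 0.67). Eif2ak3 encodes the kinase PERK (0.53 and 0.57). At 18 h Dnajc3 was not among the widest. Phosphorylation of eIF2 is not measured by RNA-seq.

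Of the 13 tested bZIP factors that can partner ATF4 or CHOP, 1 fell at 18 h and 1 rose at 24 h. Jdp2, a repressor of the AP-1 and ATF type, fell at 18 h (log2 fold-change −1.55, adjusted p = 0.0400 by limma) and at 24 h had −1.34 with an adjusted p of 0.0520. It measured 4.73, 2.24 and 7.68 FPKM in untreated cells, 1.05, 1.39 and 1.93 after 18 h in dox and 1.57, 1.83 and 1.58 after 24 h, so untreated replicate 2 was again the lowest of its group. Jdp2 passed at 24 h too with the replicate block (adjusted p = 0.0278), by edgeR (0.0133) and by DESeq2 (0.000125), and without untreated replicate 2 (log2 fold-change −1.802), but it did not pass at 18 h when any library but untreated replicate 2 was left out. Cebpa, which encodes C/EBPα, rose at 24 h, from 0.477, 0.664 and 0.698 FPKM to 1.70, 1.16 and 1.62 (1.16, adjusted p = 0.00738), though not by 2-fold at a pseudocount of 1 (0.62). It was already higher at 18 h, by less than 2-fold (0.84, adjusted p = 0.0299 by limma). Cebpg, another C/EBP partner of ATF4, was at −0.01 and 0.03.

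Paralogs were followed to see whether near relatives of the 10 genes differed too. Of 10 paralogs none fell at either time, by limma, edgeR (9 tested) or DESeq2, and none had an unadjusted p under 0.05 in that direction. By limma 4 at 18 h and 3 at 24 h had an unadjusted p under 0.05 upwards. Sesn3, a relative of Sesn2, rose at 24 h, from 3.01, 2.70 and 2.44 FPKM at 0 h to 6.49, 5.98 and 5.10 (log2 fold-change 1.08, adjusted p = 0.00219 by limma), and Cebpa, given above, was the other called. Chac2, the constitutive relative of Chac1, measured 3.92, 4.06 and 3.60 FPKM in untreated cells and 3.65, 3.64 and 3.88 after 24 h, and Trib1 measured 4.12, 4.22 and 3.84 and then 3.78, 3.88 and 3.34. Trib2, Sesn1 and Ddit4l had log2 fold-changes of 0.37, 0.04 and 0.41 at 24 h and did not pass. At 18 h 3 paralogs were already higher on the adjusted p alone. These were Sesn3 (0.93, adjusted p = 0.00530 by limma), Cebpa (0.84, adjusted p = 0.0299) and Ddit4l (0.64, adjusted p = 0.0409).

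The unfolded protein response of the endoplasmic reticulum has further arms through XBP1 and ATF6, whose chaperone and folding targets were followed in a list of 15. Herpud1, which ATF4 also controls, fell at 18 h (log2 fold-change −1.50, adjusted p = 0.0299 by limma) and at 24 h had −1.19 with an adjusted p of 0.0520. It was called lower at 24 h by edgeR (adjusted p = 0.0117) and DESeq2 (0.00769), and without untreated replicate 2 (log2 fold-change −1.62). Herpud1 measured 19.8, 9.14 and 26.5 FPKM in untreated cells and 5.49, 7.74 and 4.85 after 18 h, and it did not pass at 18 h on leaving out untreated replicate 1 or 3 or any 18 h library. No gene of this list was called higher by limma, edgeR or DESeq2 with all libraries in, but 10 passed upwards at 24 h on the adjusted p alone, and 14 had an unadjusted p under 0.05 upwards. Among them Calr, the lectin chaperone calreticulin, measured 190, 246 and 204 FPKM in untreated cells and 272, 284 and 298 after 24 h (0.42, adjusted p = 0.0332). Hsp90b1, the chaperone GRP94, did not pass (0.28, adjusted p = 0.0743). The list median was 0.18 at 18 h and 0.39 at 24 h. It was 0.27 and 0.51 without untreated replicate 2, where 1 gene, Sdf2l1, a chaperone cofactor named here after its values were seen, was called higher at 24 h (1.01).

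Several of the 10 genes also respond to p53, hypoxia or growth signals, so lists for these were followed. None of 10 p53 targets was called at either time by limma, edgeR or DESeq2 with all libraries in, with 1 lower and 5 higher at an unadjusted limma p under 0.05 at 18 h and 1 lower and 3 higher at 24 h. One of them, Bbc3, which encodes the pro-apoptotic PUMA and is named here after its values were seen, was called lower at 24 h (−1.09) when untreated replicate 2 was left out. Bax, a pro-apoptotic gene, was at −0.06 and Ccng1, encoding cyclin G1, at 0.36 at 24 h. Among 10 hypoxia targets Vegfa, an angiogenic factor that ATF4 can also induce, fell at both times (log2 fold-change −1.69 and −1.53, adjusted p = 0.00895 and 0.0101 by limma). It measured 8.42, 4.27 and 10.3 FPKM in untreated cells and 2.34, 2.25 and 2.70 after 24 h. The glucose transporter gene Slc2a1 was higher by just under 2-fold at 24 h (0.97, adjusted p = 0.000339), and Pdk1, a kinase that inhibits pyruvate dehydrogenase, was at 0.39. Vegfa, without untreated replicate 2, was at −2.06 and −1.901, and 2 genes were called higher, Slc2a1 at 24 h (1.01) and Ankrd37, named after its values were seen, at 18 h (1.04).

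Among 10 immediate early genes, which include partners of ATF3 and JDP2 in AP-1, 1 fell at 18 h and 3 at 24 h. With the replicate block, by edgeR and by DESeq2 the count at 18 h was 2, Fos being the gene added. Fosb fell at both times, from 0.604, 0.494 and 0.508 FPKM in untreated cells to 0.0630, 0.119 and 0.124 after 24 h (log2 fold-change −1.66, adjusted p = 0.00370 by limma). It is close to the filter on low values, and at a pseudocount of 1 the size was −0.48. Egr1, a zinc-finger factor, fell at 24 h, from 9.28, 14.4 and 9.69 FPKM to 4.11, 5.05 and 4.90 (−1.21, adjusted p = 0.00513, and −1.01 without untreated replicate 2). Fos fell at 24 h too (−1.18, adjusted p = 0.0301), a call lost on leaving out any untreated library or 24 h replicate 1 or 2. In Fos and Egr1 untreated replicate 2 was the highest untreated library, not the lowest. When no filter on low values was applied, Jdp2, Herpud1 and Fgf21 at 18 h and Gdf15 and Fos at 24 h did not pass, with adjusted p between 0.0544 and 0.0741.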

How the data were processed

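ESCs carrying the inducible E2A homodimer were profiled without dox and after 18 h and 24 h in it, with 3 libraries each. Times and replicate numbers came from the titles and treatment entries of the labels, although the treatment text in the labels gives 24 h and 48 h. The authors made strand-specific polyadenylated libraries, aligned reads with STAR to GRCm38 with an Ensembl annotation and used edgeR 3.16.5, and the submitters' processing notes also name cutadapt 1.9. How strand and multiply aligned reads were counted is not given in the sources used here. FPKM values for 47729 genes were deposited, scaled for length and reads mapped. A second deposited table of 19210 genes holds a per-library signal, a CPM scaled by the authors to an effective library size, and 100% of its values in each library came back as whole reads (tolerance 0.01), 22028363 to 26471569 per library. The log2 fold changes, p-values and mean CPM of the authors' comparisons in that table were not used.

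FPKM was tested with limma 3.58.1 (R 4.3.3, intensity trend, all 9 libraries, no block) on log2(FPKM + 0.1) for 17951 genes with a mean of at least 0.1 FPKM, a filter that all 10 genes passed. Adjusted p-values are Benjamini-Hochberg over these genes. A call needed an adjusted p of at most 0.05 and at least a 2-fold change. A spread is the s.d. of 3 libraries and an s.e. is limma's. The analysis was tested on simulated data. The simulated spread was the same in every group, whereas that of the 10 genes was widest in untreated cells. Alternatives were edgeR 4.0.16 and DESeq2 1.42.0 on the recovered reads, a pseudocount of 1, no filter, a mean of at least 1 FPKM, median centring, a replicate block and leaving out each library. Same-numbered libraries deviated together (r from 0.211 to 0.548 over 9 pairs, mean 0.325, 11893 genes), so the numbers were taken to pair the samples. The mean was −0.16 over 18 other pairs. Deviations were taken from the time point means, so this negative mean is built in and adds nothing. The main fit still has no block, and the block is an alternative. The study describes the replicates as biological experiments, the labels do not trace each library to its own culture, and p-values measure the spread between these libraries. No pair of replicates was a copy of the same library.

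The 10 genes and the lists were chosen with earlier results of these data known. From each list the text names up to 3 genes with the largest change at 24 h among those called at either time, and otherwise the 2 most abundant. It also names the 5 genes closest to Atf4, Chac1, Trib3 and Ddit4 by Pearson's r, Tcf3 as the check of the transgene, and genes of interest chosen after their values were seen (Slc7a11, Slc38a2, Cbs, Stc2, Cebpg, Chac2, Trib1, Trib2, Sesn1, Ddit4l, Ppp1r15a, Dnajc3, Eif2ak3, Tdgf1, Pou5f1, Nanog, Sdf2l1, Bbc3 and Ankrd37). Ppp1r15a and Bbc3 each stand in 2 lists, as do Cebpa, Cebpd, Cebpg and Sesn1. Coordinates come from GENCODE M21 (GRCm38), in which 47224 gene identifiers matched, and promoters from RefSeq (GRCm38.p6).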

Additional observations from a re-analysis of the deposited data

How the results depend on the processing

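After either time in dox the direction of each of the 10 genes was the same under every alternative run, and Atf4 and Chac1 were called in all of them. With the replicate block 199 genes in all were called lower at 18 h (130 without it); the count of pathway genes that fell was 21 at each time. The main counts were 239 genes higher and 130 lower after 18 h, 371 and 150 after 24 h, and 3 and 1 for 24 h against 18 h; pairs below follow this order. A pseudocount of 1 gave 66 and 54, 84 and 67, and 0 and 0. A mean of at least 1 FPKM gave 125 and 85, 166 and 99, and 0 and 0. With no filter 2 genes were lower at 24 h than at 18 h. edgeR called 360 genes higher at 18 h and 0 and 0 between 24 h and 18 h, and DESeq2 0 and 2 there. edgeR with the replicate block called 449 and 264, 587 and 289, and 7 and 3. With no minimum fold change the counts were 766 and 667, and 1171 and 917. On that rule 37 and 39 pathway genes were lower and 1 was higher at each time, and 1 of the 10 genes was higher at each time. Of the 10 genes, 5 were called lower at 24 h by edgeR, edgeR with the replicate block and DESeq2, against 3 by limma. Leaving out each library in turn gave 158 to 247 genes higher and 66 to 181 lower at 18 h, then 238 to 355 and 79 to 189, then 0 to 6 and 0 to 5. It gave 10 to 26 pathway genes lower at 18 h and 14 to 31 at 24 h, and, of the 10 genes, 2 to 7 lower and 0 to 1 higher at 18 h, against 3 to 8 and 0 to 1 at 24 h. The cause of these shifts was not tested. Depth limits Nupr1 most, at 20 to 63 reads per treated library, with Chac1 at 35 to 62.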
